A study of Mus musculus and Acomys cahirinus with 84 samples.

Results

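The experiment set the effect of passage on cultured skin fibroblasts of the African spiny mouse, Acomys cahirinus, against the same effect in mice labelled C56BL6. It used 16 of the 84 libraries of the series, chosen by their labels alone: cells labelled untreated and cells labelled untreated and passaged, 4 libraries of each per population, all collected at 12 d. The remaining libraries of the series came from irradiated cells, from an earlier collection time or from wild mice, and the 8 untreated and passaged libraries of wild mice at 12 d are set beside the results below. None of the cells described here were irradiated. The labels call the cells primary skin fibroblasts and give neither the age of the animals, nor the way or the number of times the cells were passaged, nor the density of the cultures. Library names tie each replicate number to 1 animal code within a population, so each animal gave 1 untreated and 1 passaged library. All 16 libraries carry the same batch label. The measured quantity is the number of reads per gene in polyA RNA, given as CPM, the count scaled to the library's own total.

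Passage means detaching cultured cells and seeding them again with more room. Normal fibroblasts that have filled their dish stop dividing and tend towards a matrix-producing, quiescent state, and after replating they re-enter the cell cycle, spread on the dish and build contractile fibres. The genes switched on at re-entry include those for copying DNA, driven by E2F factors, and those for mitosis, repressed in resting cells through a promoter element called the cell cycle homology region (CHR). Spiny mice are known for healing skin wounds with little scarring, which makes their fibroblasts a common object of comparison with those of house mice.

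For each gene the change with passage was the log2 of passaged over untreated cells within an animal, and the difference was the change in A. cahirinus minus the change in C56BL6 mice. A negative difference thus means a lower change in A. cahirinus. The comparison could be made for 11314 genes, which carry the same symbol once in both count tables and passed the expression filter in both. Levels of 1 gene in the 2 species come from separate tables with separate gene models, so only changes are compared between species. Calls below are those with a Benjamini-Hochberg adjusted p under 0.05 in edgeR's quasi-likelihood test with 1 term per animal. Total counts per library were 25.55 to 34.54 M reads in A. cahirinus and 27.07 to 34.85 M reads in C56BL6 mice. Before TMM scaling 3 counts thus correspond to 0.086 to 0.117 CPM.

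Markers of other cell types separated the libraries before any comparison was made. Fibroblast markers such as Col1a1, Col1a2, Pdgfrb and Vim were abundant throughout. All 12 fibroblast markers had means of at least 5 CPM in untreated cells of both species, and 11 did in passaged cells of each. In passaged C56BL6 cells 1 marker, Lum, was under 1 CPM. The sum of the 12 went from between 31502 and 38831 to between 20452 and 27852 CPM with passage in A. cahirinus. In C56BL6 mice it went from between 29999 and 49989 to between 18189 and 26227 CPM. Skeletal muscle markers were also high in all 8 A. cahirinus libraries: the summed level of 7 markers was 3631 to 7479.6 CPM in untreated and 1990.5 to 4688 CPM in passaged cells. Myh3, the embryonic muscle myosin, was at 1379 to 3290.1 CPM in untreated and 501 to 2046 CPM in passaged A. cahirinus libraries, and Myog, a muscle differentiation factor, was at 434 to 702 and 301 to 675 CPM. In C56BL6 mice the same 7 markers summed to 5.02 to 7.35 and 84.2 to 149 CPM, nearly all of it Acta1, while Pax7 and Ckm were at 0. Keratinocyte markers stood out in both libraries of C56BL6 replicate 1, where Krt14 was at 419 CPM in untreated and 246 CPM in passaged cells, against at most 0.0316 CPM in the other 6 C56BL6 libraries. RNA typical of skeletal muscle was thus present in every A. cahirinus library, and RNA typical of keratinocytes in both libraries of 1 C56BL6 animal. The part of these markers in the differences was not tested for A. cahirinus, where every library holds them, and counts without C56BL6 replicate 1 are given below. In bulk RNA, fewer cells of a type and less RNA per cell cannot be told apart.

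Passage changed fewer genes, and changed them less, in A. cahirinus than in C56BL6 mice. In C56BL6 mice 7900 of the 11314 genes changed (69.8%), with 3892 higher (34.4%) and 4008 lower (35.4%) in passaged cells. In A. cahirinus 4838 changed (42.8%), with 2271 higher (20.1%) and 2567 lower (22.7%). Without A. cahirinus replicate 3 that count was 3121. The median absolute log2 change per animal was 0.26, 0.21, 0.27 and 0.25 in the 4 spiny mice and 0.42, 0.46, 0.46 and 0.45 in the 4 C56BL6 mice, and the groups did not overlap. The change differed between the species for 5897 genes (52.1%): it was higher in A. cahirinus for 2837 (25.1%) and lower for 3060 (27%). Of these, 4784 (81.1%) had the larger absolute change in C56BL6 mice and 1113 (18.9%) in A. cahirinus. The difference was at least 2-fold for 908 of the genes with a higher and 878 of those with a lower change.

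**Figure D1:**
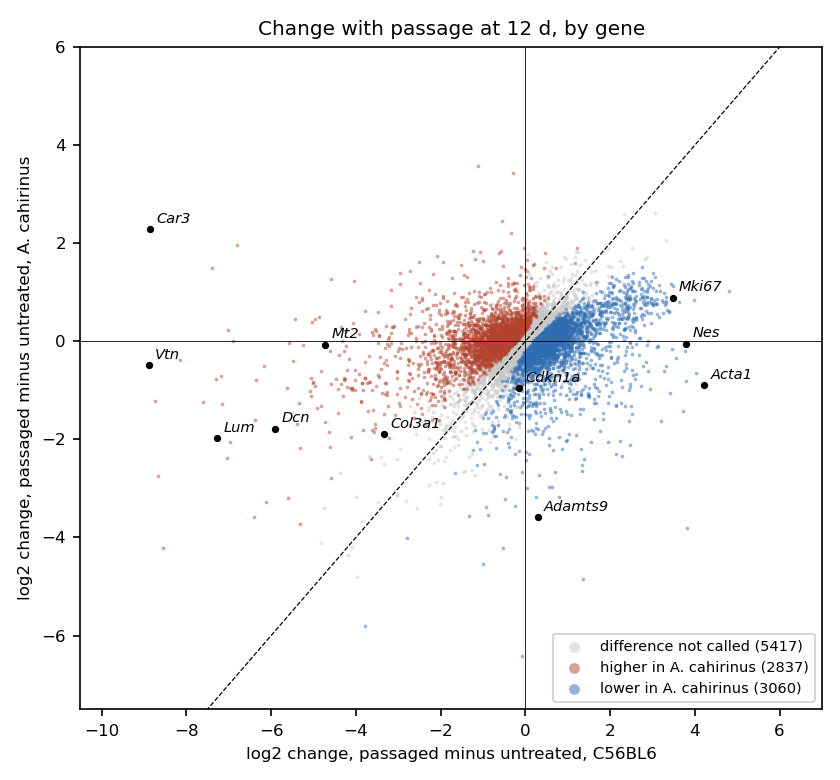
Log2 change with passage in C56BL6 mice (horizontal) and in A. cahirinus (vertical) for the 11314 genes tested, each point a gene, coloured by the call on the difference between the species, with equal changes on the dashed line. The cloud is wider along the horizontal axis, and 2837 red and 3060 blue genes lie on either side of the dashed line.

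The called differences fell into several kinds. The commonest were genes called in C56BL6 mice and not in A. cahirinus, 1489 of them higher and 1585 lower in passaged C56BL6 cells. Genes that changed in the same direction in both species, by different amounts, numbered 660 higher and 627 lower. Opposite changes were called for 763 genes (6.74% of those tested): 328 rose in A. cahirinus and fell in C56BL6 mice, and 435 did the reverse. A further 299 rose and 383 fell in A. cahirinus with no call in C56BL6 mice. Across the 11314 genes the changes in the 2 species had a Pearson correlation of 0.39, a description over genes that share the same 16 libraries. A gene called in 1 species and not in the other is described here as different only where the difference itself was called.

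Most genes of cell division had a lower change in A. cahirinus. Of 40 listed genes of mitosis and the kinetochore, 39 rose in C56BL6 mice and 26 in A. cahirinus, where 34.4% and 20.1% of all genes did. The change was lower in A. cahirinus for 36 and higher for 1, against 27% and 25.1% of all genes. The list's median log2 change was 0.85 in A. cahirinus and 2.57 in C56BL6 mice, where the median over all genes was 0.00 and -0.01. Mki67, the proliferation marker (chr7:135291513-135318299 in GRCm39), was at 49, 54.7, 61.5 and 69.9 CPM in untreated and 135, 74.9, 106 and 127 CPM in passaged A. cahirinus cells. In C56BL6 mice it was at 53.2, 14.9, 8.58 and 11.6 CPM in untreated and 215, 169, 218 and 165 CPM in passaged cells. Passaged libraries were above untreated ones in every animal of both species, and the 4 C56BL6 changes all exceeded the 4 spiny mouse changes. The log2 difference was -2.59 ± 0.48 (SE, adjusted p = 0.00162, n = 4 animals per species), and an exact two-sided permutation test of the 4 against 4 changes gave p = 0.029, the smallest it can give. Any gene whose changes do not overlap between the species reaches that smallest exact p. Changes did not overlap for 5363 of the 11314 genes tested (47.4%), so the exact p sets no named gene apart from these. In A. cahirinus alone the Mki67 change of 0.89 did not pass the test (adjusted p = 0.0506).

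Other mitotic genes went the same way. Top2a, the topoisomerase that untangles chromosomes, had a difference of -2.09 ± 0.45 (SE, adjusted p = 0.0036), with means of 81.3 and 141 CPM in untreated and passaged A. cahirinus cells and 36.6 and 219 CPM in C56BL6 cells. The kinetochore scaffold Knl1 differed by -2.34, the checkpoint kinase Bub1 by -2.57 and the midzone motor Kif23 by -2.36, each called. The mitotic kinase gene Cdk1 differed by -1.48 and its cyclin Ccnb1 by -1.29. Ccnb1 lost its call when any of A. cahirinus replicates 2, 3 or 4 or C56BL6 replicates 3 or 4 was left out, with adjusted p up to 0.118 over the alternatives tried, and its 4 against 4 changes overlapped (exact permutation p = 0.11). The 1 listed mitotic gene with a higher change was Pttg1, the separase inhibitor securin, at 0.91 ± 0.18 (SE, adjusted p = 0.00271).

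DNA replication followed mitosis. Of 40 genes for replication and nucleotide supply, 38 rose in C56BL6 mice and 18 in A. cahirinus, where 34.4% and 20.1% of all genes did. The change was lower in A. cahirinus for 32 (80%) and higher for 1 (2.5%), against 27% and 25.1% of all genes. The medians of the change were 0.48 in A. cahirinus and 1.49 in C56BL6 mice. Mcm5, a subunit of the replicative helicase (chr8:75836140-75856231), was at 14.3, 16.7, 22.8 and 20.3 CPM in untreated and 34.7, 17.5, 38.1 and 40.2 CPM in passaged A. cahirinus cells. C56BL6 cells had 24.5, 7.1, 3.34 and 3.31 CPM untreated and 78.8, 43.7, 54 and 51.5 CPM passaged. Spiny mouse replicate 2 stayed near its untreated level and C56BL6 replicate 1 started highest. The difference was -2.21 ± 0.50 (SE, adjusted p = 0.00465; exact permutation p = 0.029), and it lost its call without the animal term (adjusted p = 0.0739). The loading factors Mcm10 and Cdc6 differed by -2.76 and -2.39, the polymerase gene Pole by -2.26 and the ribonucleotide reductase subunit Rrm2 by -2.24. Pcna, the polymerase clamp, differed by only -0.58 ± 0.14 (SE, adjusted p = 0.00793). The 1 replication gene with a higher change was Gins4, which fell in C56BL6 mice from a mean of 50.1 to 21.6 CPM.

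Genes of homologous recombination, which repairs broken DNA from the sister chromatid and acts in S and G2 phase, formed the only one of the 27 pathway lists in which every member tested was called in 1 direction: 20 of 20 had a lower change in A. cahirinus. Of all genes tested 27% had a lower change. Without the animal term 17 of the 20 listed genes were called lower, and with wild mice added to the fit 19 were. All 20 rose in C56BL6 mice and 9 in A. cahirinus, where 34.4% and 20.1% of all genes did. The medians of the change were 2.24 in C56BL6 mice and 0.58 in A. cahirinus. Rad54l, a motor of strand exchange, was at 5.95 to 7.89 CPM in untreated and 6.18 to 10.4 CPM in passaged A. cahirinus cells, and at 1.19 to 2.04 and 7.42 to 8.96 CPM in C56BL6 cells. Untreated and passaged libraries overlapped in A. cahirinus and were well apart in C56BL6 mice, and the difference was -2.25 ± 0.20 (SE, adjusted p = 2.5e-05). The Fanconi gene Fanca differed by -2.37, Rad54b by -2.44 and the nuclease gene Exo1 by -2.29. Brca1, a ubiquitin ligase of the same pathway, differed by -2.19 ± 0.39 (SE, adjusted p = 0.00128).

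Regulators of the cycle and the chromatin of dividing cells moved with them. Of 32 regulators 21 had a lower (65.6%) and 4 a higher change (12.5%) in A. cahirinus, against 27% and 25.1% of all genes. The repressors E2f7 and E2f8 differed by -3.15 and -2.56, the activator Mybl2 by -2.27 and Ccne2, a cyclin of S phase entry, by -2.10. Ccnd1, the cyclin through which growth signals reach the cycle, was at 178, 246, 93.2 and 92.1 CPM in untreated and 618, 631, 326 and 389.6 CPM in passaged C56BL6 cells, against 310.0, 653, 211 and 224 and then 310.0, 399, 223 and 154 CPM in A. cahirinus. It rose in C56BL6 mice and was not called in A. cahirinus, and the difference was -2.05 ± 0.21 (SE, adjusted p = 6.01e-05). Among 17 chromatin genes, 13 had a lower change (76.5%, against 27% of all genes). Lmnb1, the nuclear lamin that is lost in senescent cells, was at 42.3 to 58.6 CPM in untreated and 37.5 to 98.6 CPM in passaged A. cahirinus cells and at 9.37 to 20.9 and 55.8 to 71.8 CPM in C56BL6 cells. Its difference was -1.94 ± 0.25 (SE, adjusted p = 0.000238). The 1 chromatin gene with a higher change was Hmgb1, at 0.30, a call lost under several alternatives with adjusted p up to 0.224.

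Inhibitors of the cycle did not move as a group. Cdkn1a, which encodes p21 and is the classical target of p53, was at 973, 698, 854 and 682 CPM in untreated and 449, 413, 427 and 355 CPM in passaged A. cahirinus cells. It was at 304, 556, 403 and 367 and then 318, 409, 329 and 385 CPM in C56BL6 mice. Every spiny mouse fell by a similar amount while C56BL6 mice went either way. The change was -0.95 in A. cahirinus (adjusted p = 0.000106) and -0.15 in C56BL6 mice (adjusted p = 0.194), and the difference was -0.80 ± 0.14 (SE, adjusted p = 0.00111; exact permutation p = 0.029). Cdkn2a, the locus of p16 and p19, fell in both species, with a difference of 0.46 ± 0.17 (SE, adjusted p = 0.0436), and Cdkn1c, which encodes p57, differed by 1.94 ± 0.72 (SE, adjusted p = 0.0446). Neither of these 2 differences held its call when single animals were left out: without A. cahirinus replicate 1, 3 or 4 or C56BL6 replicate 2, 3 or 4 both lost it, with adjusted p up to 0.499 for Cdkn2a and 0.16 for Cdkn1c over the alternatives. Of 28 listed p53 targets 9 had a lower change (32.1%, near the 27% of all genes) and 4 a higher change. Among the lower ones were Gdf15, a stress-induced cytokine, at -2.50, the kinase Plk3 at -2.27 and the death receptor Eda2r at -1.18, while Dcxr, a sugar reductase, differed by 1.85.

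Genes that make ribosomes rose in both species and more in C56BL6 mice. Of 28 genes 26 rose in C56BL6 mice and 21 in A. cahirinus, where 34.4% and 20.1% of all genes did. The change was lower in A. cahirinus for 23 (82.1%) and higher for 1 (3.57%), against 27% and 25.1% of all genes. The medians of the change were 0.40 in A. cahirinus and 1.01 in C56BL6 mice. Heatr1, a factor of ribosomal RNA processing, was at 66.1, 51.5, 66 and 67.8 CPM in untreated and 88.1, 64.7, 86 and 94 CPM in passaged A. cahirinus cells, and at 19.5, 15.7, 17.4 and 14.4 and then 52, 47.1, 41.9 and 37.1 CPM in C56BL6 cells. Each animal rose, and the difference was -1.01 ± 0.08 (SE, adjusted p = 2.03e-05). Rrp12, Dkc1 and Nop58 of the same group differed by -1.53, -1.30 and -0.99. The exception was Polr1c, a subunit shared by RNA polymerases I and III, at 0.87.

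**Figure D2:**
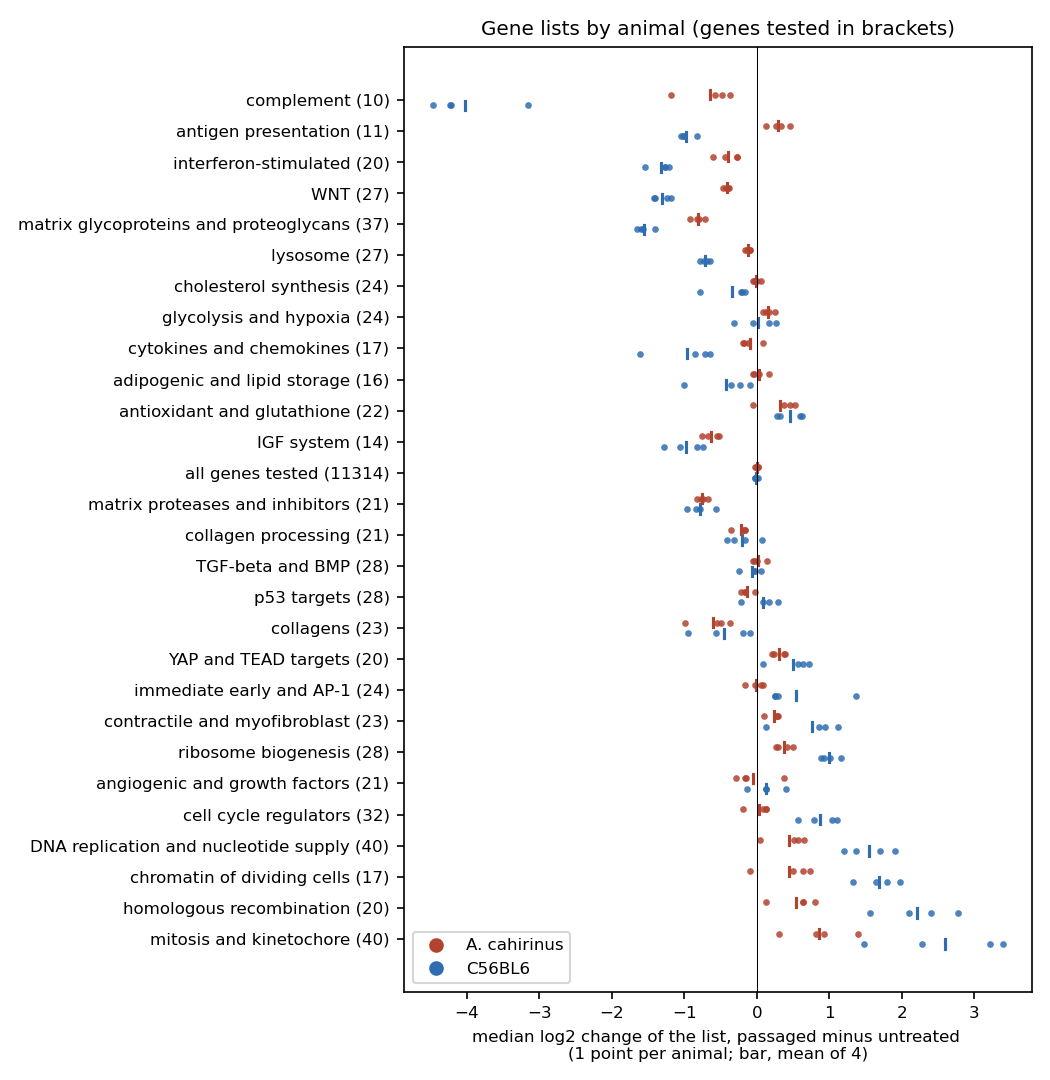
Median log2 change with passage of each gene list (horizontal), 1 point per animal, for A. cahirinus (red) and C56BL6 mice (blue), with bars at the mean of 4 animals and lists ordered by the median difference. The spiny mouse points lie nearer 0 than the C56BL6 points in the complement, interferon, lysosome and cell division lists, and the medians over all genes lie between -0.03 and 0.01.

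Promoter letters of the mouse genes are shown for motifs known from the lists described here. They are given for 1 gene per motif, from RefSeq for GRCm38.p6, in a window that ends shortly after the annotated start, because no promoter sequence of A. cahirinus was used here. The capitals mark the CHR (TTTGAA) in Mki67 at chr7:135716330-135716629 on the minus strand, an E2F site (TTNCGCGC) in Mcm5 at chr8:75109259-75109558 on the plus strand, 3 overlapping interferon-stimulated response elements (ISRE) in Isg15 at chr4:156200769-156201068 on the minus strand, and the site of TEAD factors (GGAATG) in Ankrd1 at chr19:36119795-36120094 on the minus strand.
Mki67: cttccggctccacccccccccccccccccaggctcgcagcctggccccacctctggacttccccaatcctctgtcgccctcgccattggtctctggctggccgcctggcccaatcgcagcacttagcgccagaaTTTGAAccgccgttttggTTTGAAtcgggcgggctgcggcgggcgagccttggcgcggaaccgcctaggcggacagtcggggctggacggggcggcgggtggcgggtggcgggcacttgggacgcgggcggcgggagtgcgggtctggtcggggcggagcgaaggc
Mcm5: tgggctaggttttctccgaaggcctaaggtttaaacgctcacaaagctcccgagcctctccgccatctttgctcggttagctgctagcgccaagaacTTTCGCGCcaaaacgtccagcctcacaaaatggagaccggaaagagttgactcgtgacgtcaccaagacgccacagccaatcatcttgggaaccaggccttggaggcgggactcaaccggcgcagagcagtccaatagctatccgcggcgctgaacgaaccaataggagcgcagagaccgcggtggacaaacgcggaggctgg
Isg15: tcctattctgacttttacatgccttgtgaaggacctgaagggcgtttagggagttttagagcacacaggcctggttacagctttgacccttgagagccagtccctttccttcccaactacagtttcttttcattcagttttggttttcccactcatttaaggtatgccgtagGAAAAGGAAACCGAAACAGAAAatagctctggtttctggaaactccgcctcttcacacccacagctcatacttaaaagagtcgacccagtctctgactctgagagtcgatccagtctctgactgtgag
Ankrd1: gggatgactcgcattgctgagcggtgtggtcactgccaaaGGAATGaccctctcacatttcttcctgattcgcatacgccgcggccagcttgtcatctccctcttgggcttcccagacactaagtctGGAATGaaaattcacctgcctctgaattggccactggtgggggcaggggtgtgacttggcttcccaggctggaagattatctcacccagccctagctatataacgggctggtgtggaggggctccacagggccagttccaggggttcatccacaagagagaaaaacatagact
Motifs were searched on both strands in the windows of the listed genes that were tested. The CHR was in 28 of 39 windows of the mitosis list (71.8%), against 11.6% of the 11680 windows of all genes tested, and the CCAAT box was in 30 of 39 (76.9%) against 37.2%. The E2F site TTNCGCGC was in 12 of 38 windows of the replication list (31.6%) against 3.81%, and the variant TTCCCGCC in 7 of 38 (18.4%) against 4.08%. The ISRE was in 5 of 17 windows of the interferon list (29.4%) against 2.65%, and the TEAD site in 8 of 18 windows of the YAP list (44.4%) against 11.9%. The sterol regulatory element was in 0 of 19 windows of the cholesterol list, against 0.0428% of all. A match is a run of letters and no evidence of binding, and the lists were drawn from genes long known to carry some of these elements.

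Extracellular matrix genes had differences in both directions. Of 23 collagens 7 had a higher and 7 a lower change in A. cahirinus, close to the shares among all genes. Col3a1, the fibrillar collagen of young and healing skin (chr1:45350698-45395840), fell in every animal: from 4332, 6149, 4771 and 5787 to 1076, 1979, 1329.8 and 1361 CPM in A. cahirinus and from 5879.6, 11069, 27699 and 23184 to 477, 1479, 2473 and 2353 CPM in C56BL6 mice. The changes did not overlap between species, and the difference was 1.44 ± 0.18 (SE, adjusted p = 0.000185; exact permutation p = 0.029), a call lost without the animal term (adjusted p = 0.112). Col1a1, the main collagen of dermis, was at 8796 to 10970.4 CPM in untreated and 6712 to 7547 CPM in passaged A. cahirinus cells, which did not overlap, and at 5599.6 to 7765 and 6558 to 9338 CPM in C56BL6 cells, which did. Its difference of -0.74 ± 0.21 (SE, adjusted p = 0.0147) lost its call without A. cahirinus replicate 4, and adjusted p ran up to 0.341 over the alternatives.

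Some matrix genes differed far more. Col7a1, the anchoring fibril collagen, was at 33.3, 15.1, 11.3 and 14.7 CPM in untreated and 225, 146, 153 and 152 CPM in passaged C56BL6 cells, and at 4.57 to 12.1 and 3.38 to 6.43 CPM in A. cahirinus, with a difference of -3.89 ± 0.25 (SE, adjusted p = 6.29e-06). Loxl3, a collagen cross-linking oxidase, rose in all 4 C56BL6 mice, from 204 to 265 CPM up to 413 to 654 CPM, and fell in all 4 spiny mice, from 66.2 to 118 CPM down to 30.3 to 44.3 CPM. Its difference was -2.35 ± 0.12 (SE, adjusted p = 1.58e-06). Col8a2, a collagen of hexagonal networks, differed by 2.87 and the fibrillar collagen Col27a1 by 2.77.

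Matrix glycoproteins and small proteoglycans fell with passage in both species, and further in C56BL6 mice. Of 37 tested genes 25 fell in C56BL6 mice and 24 in A. cahirinus, where 35.4% and 22.7% of all genes did. The change was higher in A. cahirinus for 17 (45.9%) and lower for 6 (16.2%), against 25.1% and 27% of all genes. The medians of the change were -0.77 in A. cahirinus and -1.69 in C56BL6 mice. Decorin (Dcn), which binds collagen fibrils, was at 949, 2708, 819.6 and 941 CPM in untreated and 316, 1079, 251 and 166 CPM in passaged A. cahirinus cells. In C56BL6 mice it went from 125, 547, 1149 and 682 CPM to 0.982, 25, 12.8 and 9.64 CPM. All 8 animals fell, the C56BL6 mice further than any spiny mouse, and the difference was 4.13 ± 0.49 (SE, adjusted p = 0.000128; exact permutation p = 0.029). Its relative lumican (Lum) differed by 5.29 ± 0.35 (SE, adjusted p = 7.09e-06), with passaged C56BL6 libraries at 0.0298 to 0.584 CPM. Periostin (Postn), a matricellular protein of wound tissue, fell from 1589 to 2824 CPM down to 457 to 568 CPM in C56BL6 mice and was at 9588 to 13805 and 11471 to 13229.7 CPM in A. cahirinus, with a difference of 2.04 ± 0.21 (SE, adjusted p = 6.96e-05). Tenascin C (Tnc) showed the opposite picture: all 4 spiny mice fell, from a mean of 1025 to 129 CPM, while C56BL6 mice were at 916 to 1379.8 and 787 to 1555 CPM. The difference of Tnc was -3.04 ± 0.29 (SE, adjusted p = 4.09e-05).

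Vitronectin (Vtn), a plasma and matrix glycoprotein, had only 2 counts summed over the 4 passaged C56BL6 libraries against 1281 in the untreated ones, a ratio of 658-fold (95% interval 182 to 5441, covering counting error only). Its fitted difference of 8.41 depends on the prior count. Means of Vtn in A. cahirinus were 1.57 and 1.12 CPM.

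Proteases and their inhibitors showed no common direction, with 7 of 21 higher (33.3%) and 5 lower (23.8%), against 25.1% and 27% of all genes. Adamts12, which degrades cartilage matrix, fell in all 4 spiny mice, from 183 to 534 CPM down to 72.8 to 316 CPM, and rose in all 4 C56BL6 mice, from 60.5 to 73.6 CPM up to 123 to 223 CPM, with a difference of -2.52 ± 0.21 (SE, adjusted p = 1.95e-05). Adamts15 fell in C56BL6 mice, where 28.4, 17.8, 161 and 147 CPM became 0.0595, 0.0584, 0.766 and 0.373 CPM, against 2.08 to 5.8 and 2.11 to 3.42 CPM in A. cahirinus. Mmp3, stromelysin, differed by 3.25 ± 1.07 (SE, adjusted p = 0.0278), and this call was lost without A. cahirinus replicate 3, C56BL6 replicate 1 or C56BL6 replicate 3.

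More contractile genes rose with passage in C56BL6 mice than in A. cahirinus. Of 23 genes 17 rose in C56BL6 mice and 7 in A. cahirinus, where 34.4% and 20.1% of all genes did. In each species 4 fell. The change was lower in A. cahirinus for 10 (43.5%) and higher for 3 (13%), against 27% and 25.1% of all genes. Markers of smooth muscle and pericytes share Myh11 with this list, and 5 of 6 tested had a lower change and 0 a higher one. Their median changes were -0.96 in A. cahirinus and 1.45 in C56BL6 mice. Those of the contractile list were 0.18 and 0.80, so the medians had the same sign in C56BL6 mice only. Summed over its 7 markers, Des among them, the smooth muscle and pericyte list went from between 70.7 and 139.6 CPM to between 196 and 429 CPM in C56BL6 mice. In A. cahirinus the sum went from between 809 and 1607 to between 778 and 1418 CPM. The A. cahirinus libraries also held skeletal muscle RNA, and its part in this sum was not tested. The part of the smooth muscle and pericyte markers in the contractile genes was not tested either. Acta2, the smooth muscle actin of myofibroblasts, was at 3622, 5237, 3588 and 4080.1 CPM in untreated and 4408, 6540.3, 4362 and 3666 CPM in passaged A. cahirinus cells. In C56BL6 mice 5093, 2603, 2157 and 1721 CPM became 6099, 6135, 5969.5 and 6234 CPM. The passaged C56BL6 libraries were nearly equal, and C56BL6 replicate 1, which already stood at 5093 CPM, changed least. The difference of -1.03 ± 0.30 (SE, adjusted p = 0.0168) lost its call without A. cahirinus replicate 4 and without the animal term (adjusted p = 0.0974, the highest over its alternatives), and the changes of the 2 species overlapped (exact permutation p = 0.11). Myh11, the smooth muscle myosin, fell in all 4 spiny mice, from 54.6, 28.7, 21.4 and 25.1 to 14, 21.1, 6.74 and 4.82 CPM. It rose in all 4 C56BL6 mice, from 17.8, 27.3, 32.2 and 29.5 to 68, 93.5, 109.7 and 105 CPM, with a difference of -3.41 ± 0.34 (SE, adjusted p = 5.03e-05). Itga11, a collagen-binding integrin, differed in the other direction, by 2.02.

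Acta1, the actin of skeletal muscle, belongs beside the muscle markers. It was at 1456 to 2659.7 CPM in untreated and 948 to 1445 CPM in passaged A. cahirinus cells, and rose in C56BL6 mice from 4.8 to 7.14 CPM up to 83.8 to 149 CPM, with a difference of -5.11 ± 0.26 (SE, adjusted p = 1.58e-06). Reads of Acta1 and Acta2 are hard to tell apart in conserved stretches, and reads that matched several places were left out, so both levels are uncertain. The Acta1 fall in A. cahirinus was 0.90 on the log2 scale. The summed muscle markers, Acta1 among them, went there from between 3631 and 7479.6 CPM to between 1990.5 and 4688 CPM. The part of muscle markers in the Acta1 fall was not tested. Nestin (Nes), an intermediate filament of muscle and nerve progenitors, had a difference of -3.85 ± 0.15 (SE, adjusted p = 8.62e-07). Its A. cahirinus levels were 958 to 2041 and 789 to 2053 CPM, and its C56BL6 levels went from 5.52 to 16.7 up to 97.8 to 186 CPM.

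Targets of YAP and TEAD, which respond to cell spreading, had 9 lower (45%) and 4 higher (20%) differences among 20. The shares of all genes were 27% and 25.1%. Ccn2, connective tissue growth factor, was at 1401, 3315, 1403 and 1255 CPM in untreated and 2311, 3785, 2502 and 1963 CPM in passaged A. cahirinus cells. C56BL6 cells had 1046, 381, 545 and 237 CPM and then 1768, 2022, 1571 and 1430.5 CPM. Passaged libraries were higher in all 8 animals, and the C56BL6 changes overlapped with those of the spiny mice through C56BL6 replicate 1. The difference of -1.23 ± 0.37 (SE, adjusted p = 0.0185; exact permutation p = 0.057) lost its call without A. cahirinus replicate 2 or C56BL6 replicate 2, with adjusted p up to 0.151. Ankrd1, a cardiac ankyrin repeat protein also made in muscle, differed by -1.75 ± 0.26 (SE, adjusted p = 0.000506), with A. cahirinus means of 1227 and 1687 CPM and C56BL6 means of 46 and 178 CPM. Its call was lost without the animal term (adjusted p = 0.0877). Gadd45b, a stress-induced regulator of growth arrest, rose in A. cahirinus and fell in C56BL6 mice, with a difference of 1.41.

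Among immediate early genes and the phosphatases that damp growth factor signals, 8 of 24 had a lower change (33.3%, against 27% of all genes) and 1, Junb, a higher change. Egr1 fell in all 4 spiny mice, from between 81.7 and 122 CPM to between 15 and 35.3 CPM. In C56BL6 mice 122, 81.6, 85.6 and 20 became 150.2, 131, 107 and 153 CPM, with replicate 4 starting far below the others. The difference was -3.02 ± 0.53 (SE, adjusted p = 0.00117). Dusp4 and Dusp6, phosphatases of the ERK pathway, differed by -3.90 and -2.51 and rose in C56BL6 mice without a call in A. cahirinus. Growth factors gave 11 lower (52.4%) and 5 higher (23.8%) differences among 21, against 27% and 25.1% of all genes. Hbegf, an EGF receptor ligand, was at 10.7 and 53.1 CPM on average in untreated and passaged C56BL6 cells and 47.4 and 53.5 CPM in A. cahirinus, and differed by -2.39, while Angpt2, which loosens vessel walls, differed by 3.28.

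Innate immune genes fell in C56BL6 mice. Of 20 tested interferon-stimulated genes 19 fell in C56BL6 mice and 10 in A. cahirinus, where 35.4% and 22.7% of all genes did. The change was higher in A. cahirinus for 13 (65%) and lower for 0, against 25.1% and 27% of all genes. The medians of the change were -0.32 in A. cahirinus and -1.38 in C56BL6 mice. The list is cut short by the expression filter and by symbols missing from 1 table: 38 genes were listed, and the well-known Ifit1 was not tested, at a mean of 0.109 and 0.0466 CPM in A. cahirinus and 8.83 and 1.41 CPM in C56BL6 cells. Zbp1, a sensor of Z-form nucleic acids, was at 2.01, 3.46, 6.91 and 8.11 CPM in untreated and 0.417, 0.351, 0.62 and 0.475 CPM in passaged C56BL6 cells, and at 1.49 to 5.24 and 0.669 to 3.27 CPM in A. cahirinus, with a difference of 2.90 ± 0.41 (SE, adjusted p = 0.000395). Xaf1, Parp9 and Dtx3l differed by 1.92, 1.57 and 1.39. Isg15, the ubiquitin-like modifier whose promoter is printed above, fell in all 8 animals and further in C56BL6 mice, from 5.59 to 11 down to 1.57 to 1.82 CPM. Its A. cahirinus levels were 0.903 to 1.44 and 0.449 to 0.616 CPM, and its changes of -1.14 in A. cahirinus and -2.14 in C56BL6 mice differed (adjusted p = 0.0244), a call lost without A. cahirinus replicate 1 or 4. The interferon-inducible GTPase Iigp1 differed by 4.64 ± 0.25 (SE, adjusted p = 1.95e-06).

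Antigen presentation by MHC class I gave 9 higher (81.8%) and 0 lower differences among 11 genes, against 25.1% and 27% of all genes. In A. cahirinus 6 rose and in C56BL6 mice 8 fell, where 20.1% and 35.4% of all genes did. Psmb8, a subunit of the immunoproteasome (chr17:34416690-34420428), was at 6.55, 11.3, 6.64 and 5.71 CPM in untreated and 15.9, 13.4, 12.6 and 10.6 CPM in passaged A. cahirinus cells. In C56BL6 mice 13.2, 5.56, 7.35 and 10.3 CPM became 3.27, 1.61, 2.01 and 3.05 CPM. All 4 spiny mice rose and all 4 C56BL6 mice fell, and the difference was 2.69 ± 0.22 (SE, adjusted p = 1.83e-05). The peptide transporter Tap1 likewise rose in every spiny mouse and fell in every C56BL6 mouse, with a difference of 1.69 ± 0.12 (SE, adjusted p = 8.68e-06). Psmb9 and the chaperone Tapbp differed by 3.28 and 1.67. B2m, the light chain of class I molecules, differed by 0.75 ± 0.08 (SE, adjusted p = 8.72e-05), with A. cahirinus libraries at 357 to 601 and 389 to 604 CPM and C56BL6 libraries at 443 to 531 and 275 to 349 CPM.

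Complement genes had a median difference of 3.51, over few genes. Only 10 of 20 were tested, 7 with a higher (70%) and 1 with a lower change (10%), against 25.1% and 27% of all genes. The medians of the change were -0.73 in A. cahirinus and -4.28 in C56BL6 mice. C1s1, the protease of the classical pathway, went from 443, 534, 802 and 816 CPM to 23.8, 28.2, 43.7 and 36.8 CPM in C56BL6 mice, and from 5.56, 8.59, 4.22 and 5.42 to 4.08, 6.33, 2.11 and 2.22 CPM in A. cahirinus. All 8 animals fell, and the difference was 3.53 ± 0.18 (SE, adjusted p = 1.58e-06). Serping1, the inhibitor of that protease, differed by 4.16 ± 0.23 (SE, adjusted p = 2.04e-06), with C56BL6 libraries at 57.6 to 822 and 0.922 to 26.8 CPM and A. cahirinus libraries at 67.3 to 99 and 37.6 to 52.7 CPM. The alternative pathway factor Cfb had 379 summed counts in untreated and 2 in passaged C56BL6 cells, a ratio of 195-fold (95% interval 53.5 to 1614, counting error only). The exception was Masp1, a protease of the lectin pathway, at -1.53, a call lost without the animal term (adjusted p = 0.0569).

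Of 17 cytokines and chemokines 8 had a higher (47.1%) and 3 a lower change (17.6%), against 25.1% and 27% of all genes. Cxcl12, the stromal chemokine of CXCR4, was at 1116, 3131, 4152 and 4314 CPM in untreated and 342, 419.7, 240.4 and 281 CPM in passaged C56BL6 cells. In A. cahirinus 21.2, 90.1, 13.5 and 54.6 CPM became 45.9, 126, 44.9 and 41.1 CPM. It fell in every C56BL6 mouse and was higher in passaged cells of 3 of 4 spiny mice, and the difference was 3.90 ± 0.60 (SE, adjusted p = 0.000609). The alarmin Il33 and the chemokine Cxcl16 differed by 5.56 and 3.15. Il6 was not called, with a difference of 0.01 ± 0.23 (SE, adjusted p = 0.96) and means of 3.65 and 2.95 CPM in A. cahirinus and 27.5 and 24.7 CPM in C56BL6 cells.

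Most WNT genes fell in C56BL6 mice. Of 27 WNT genes 14 had a higher (51.9%) and 2 a lower change (7.41%) in A. cahirinus, against 25.1% and 27% of all genes. In C56BL6 mice 19 fell and in A. cahirinus 12, where 35.4% and 22.7% of all genes did. The antagonist Sfrp4 and the ligand Wnt16 differed by 3.56 and 3.45, the latter with its call lost without the animal term (adjusted p = 0.0655). Notum, which inactivates WNT ligands, rose in all 4 spiny mice, from 0.887, 0.276, 1 and 0.262 to 6.93, 3.27, 10.3 and 7.28 CPM, and had means of 0.855 and 0.357 CPM in C56BL6 cells, with a difference of 4.70 ± 0.83 (SE, adjusted p = 0.00129). The 2 WNT genes with a lower change were the transcription factors Lef1, at -4.47, and Tcf7, at -1.38, the latter with its call lost without the animal term (adjusted p = 0.151). Of 28 genes of TGF-beta and BMP signalling 10 had a lower and 6 a higher change (35.7% and 21.4%, against 27% and 25.1% of all genes). Follistatin (Fst), which traps activin, fell in all 4 spiny mice, from a mean of 30.9 to 2.86 CPM, and was at 68.2 to 653 and 79.6 to 350.4 CPM in C56BL6 cells. Its difference was -3.11 ± 0.40 (SE, adjusted p = 0.000226). The BMP antagonist Chrdl1 differed by 5.18 and the BMP target Id1 by -2.27.

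The IGF system had 4 higher differences among 14 genes (28.6%, near the 25.1% of all genes; 1 without the animal term) and 0 lower ones. Igf2, a fetal growth factor that muscle precursors also make, fell in all 4 spiny mice, from 2215, 1098, 2409 and 2109 to 651, 294, 620.0 and 764 CPM, and lay at 0.21 to 3.53 and 0.0292 to 0.511 CPM in C56BL6 cells. Its difference of 1.78 ± 0.37 (SE, adjusted p = 0.0032) lost its call without the animal term (adjusted p = 0.168). Igfbp3, the main carrier of IGF, differed by 3.71. Igf1 fell in both species by similar amounts, -2.40 and -2.28, and the difference of -0.12 ± 0.47 (SE, adjusted p = 0.845; exact permutation p = 0.83) did not pass the test.

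Metabolic lists were mixed, apart from the lysosome. Of 27 lysosomal genes 23 fell in C56BL6 mice and 8 in A. cahirinus, where 35.4% and 22.7% of all genes did. The change was higher in A. cahirinus for 19 (70.4%) and lower for 1 (3.7%), against 25.1% and 27% of all genes. The medians of the change were -0.13 in A. cahirinus and -0.68 in C56BL6 mice. Lamp2, a protein of the lysosomal membrane, was at 605, 684, 905 and 959 CPM in untreated and 241, 308, 341 and 352 CPM in passaged C56BL6 cells, and at 133 to 154 and 122 to 147 CPM in A. cahirinus. Its difference was 1.18 ± 0.09 (SE, adjusted p = 1.71e-05), and those of the cathepsin Ctsf and the acid lipase Lipa were 1.70 and 1.09. The exception was Gusb, the glucuronidase, at -0.43.

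Among 24 genes of cholesterol synthesis and uptake 9 had a higher (37.5%) and 3 a lower change (12.5%). The shares of all genes were 25.1% and 27%. Nsdhl, an enzyme of sterol synthesis, differed by 1.12 ± 0.16 (SE, adjusted p = 0.00039): it rose in A. cahirinus, from 11.3 to 13.4 CPM up to 15 to 18.9 CPM, and fell in C56BL6 mice, from 33.4 to 46 CPM down to 22.5 to 25.9 CPM. Of 24 genes of glycolysis and hypoxia 6 had a higher change (25%, near the 25.1% of all genes) and 2 a lower change. The glucose transporter Slc2a1 rose in all 4 spiny mice, from 617, 1217, 519.7 and 573 to 1197, 2206, 1033 and 939 CPM, and was at 128 to 253 and 133 to 192 CPM in C56BL6 mice, with a difference of 0.92 ± 0.21 (SE, adjusted p = 0.00523). That call was lost without the animal term (adjusted p = 0.113). The hypoxia gene Ndrg1 differed by 3.71. Antioxidant genes gave 6 differences in each direction among 22 (27.3%, near the shares of all genes), with the cystine transporter Slc7a11 at -1.05 and the extracellular dismutase Sod3 at 4.19, and Sod3 lost its call without A. cahirinus replicate 4. Adipogenic genes gave 5 higher and 4 lower differences among 16 (31.2% and 25%, also near the shares of all genes), with the lipase Lpl at 3.32 and the lipid droplet protein Plin4 at -3.98.

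**Figure D3:**
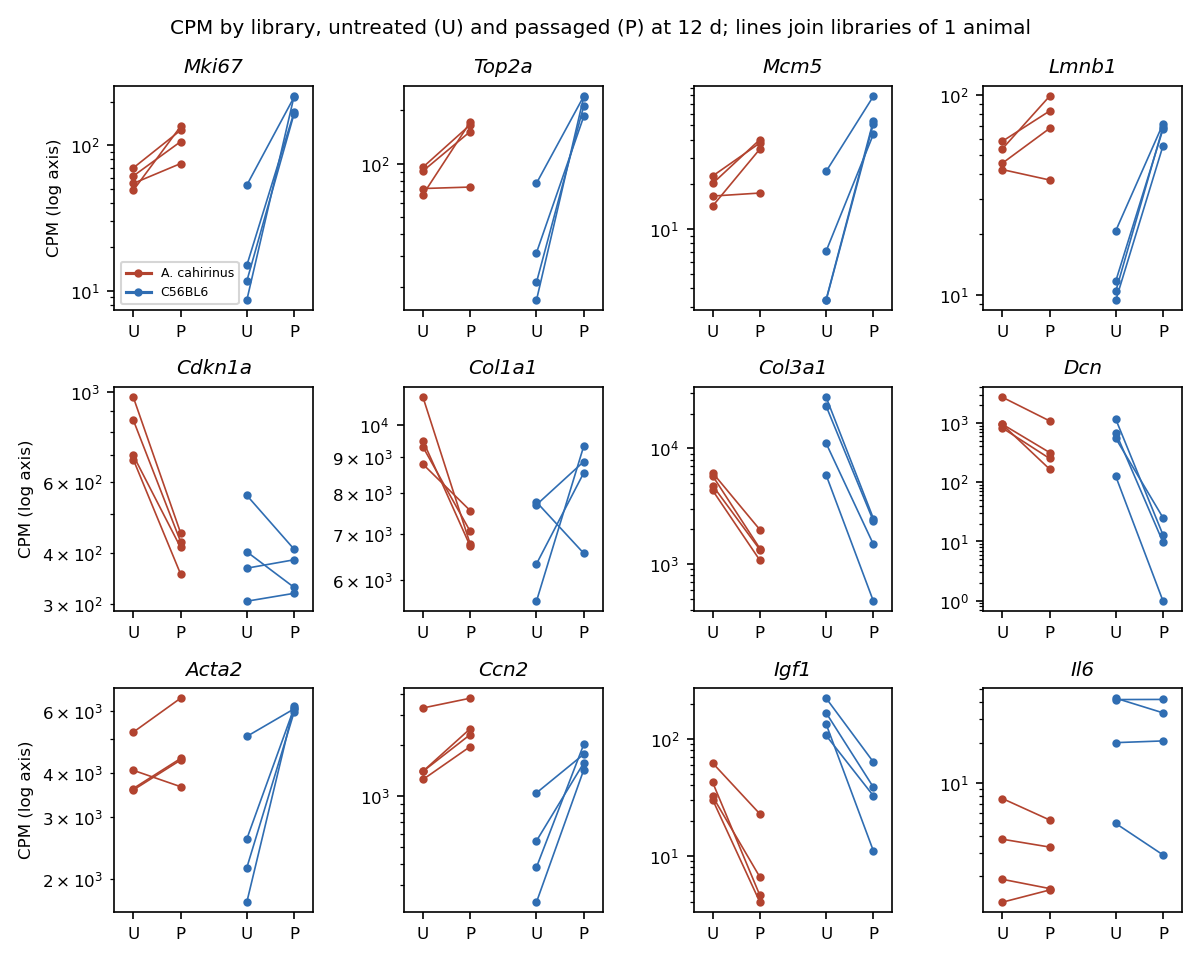
CPM per library on log axes for 12 genes in untreated (U) and passaged (P) cells, with a line joining the libraries of each animal, in A. cahirinus (red) and C56BL6 mice (blue). Mki67, Mcm5 and Lmnb1 rise more steeply in C56BL6 mice, Dcn falls more steeply there, and Cdkn1a falls in all 4 red lines.

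The 12 largest differences in each direction were taken among called genes with a mean of at least 5 CPM in 1 or both groups of each species and changes that did not overlap. Those with a higher change were mostly genes that fell steeply in C56BL6 mice and little in A. cahirinus. Car3, a carbonic anhydrase of muscle and fat (chr3:14928489-14937595), stood first. It rose in the spiny mice from 2236, 1729.9, 2512 and 2353 to 11534, 7967, 11637 and 11783 CPM, and in C56BL6 mice it went from 2.28, 8.36, 20 and 8.11 CPM to 0, 0, 0.0729 and 0 CPM. The passaged C56BL6 libraries held 2 counts in all against 1197 in the untreated ones, a ratio of 615-fold (95% interval 169.9 to 5085, counting error only), and the fitted difference of 11.12 depends on the prior count. In A. cahirinus the change was 2.28 (adjusted p = 3.03e-06). Clec3b (tetranectin), Ism1 and the ferritin receptor Scara5 differed by 8.75, 6.54 and 6.37, with passaged C56BL6 means of 0.333, 0.986 and 0.315 CPM. The metallothionein Mt2, a metal-binding stress protein, differed by 4.66, and because metallothioneins are near copies of each other its counts are uncertain. Fxyd1, a small regulator of the sodium pump, Il33, Lum, Iigp1 and the ectonucleotidase Entpd2, also among the 12 largest, differed by 4.42 to 5.56.

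Among the 12 largest differences in the other direction, all but Adamts9 rose in C56BL6 mice. Fgd3, an activator of Cdc42, differed by -5.13 ± 0.72 (SE, adjusted p = 0.000339), from 69.7, 2.1, 1.64 and 0.978 to 191, 71.7, 35 and 34.7 CPM in C56BL6 mice and from 47.2 to 58.7 down to 19 to 21.3 CPM in A. cahirinus. C56BL6 replicate 1 stood far above the other untreated libraries of its group, and the call was lost without the animal term (adjusted p = 0.0699). The actin nucleator Cobl, the muscle ubiquitin ligase subunit Asb2, Ripor2, the potassium channel subunit Kcnmb1, Ccdc88c and Popdc2, a protein of muscle membranes, differed by -4.60, -4.01, -4.01, -3.94, -3.90 and -3.82. Adamts9, a versican protease, was different in kind: it fell in A. cahirinus from a mean of 10.6 to 0.841 CPM, was not called in C56BL6 mice, and differed by -3.88.

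**Figure D4:**
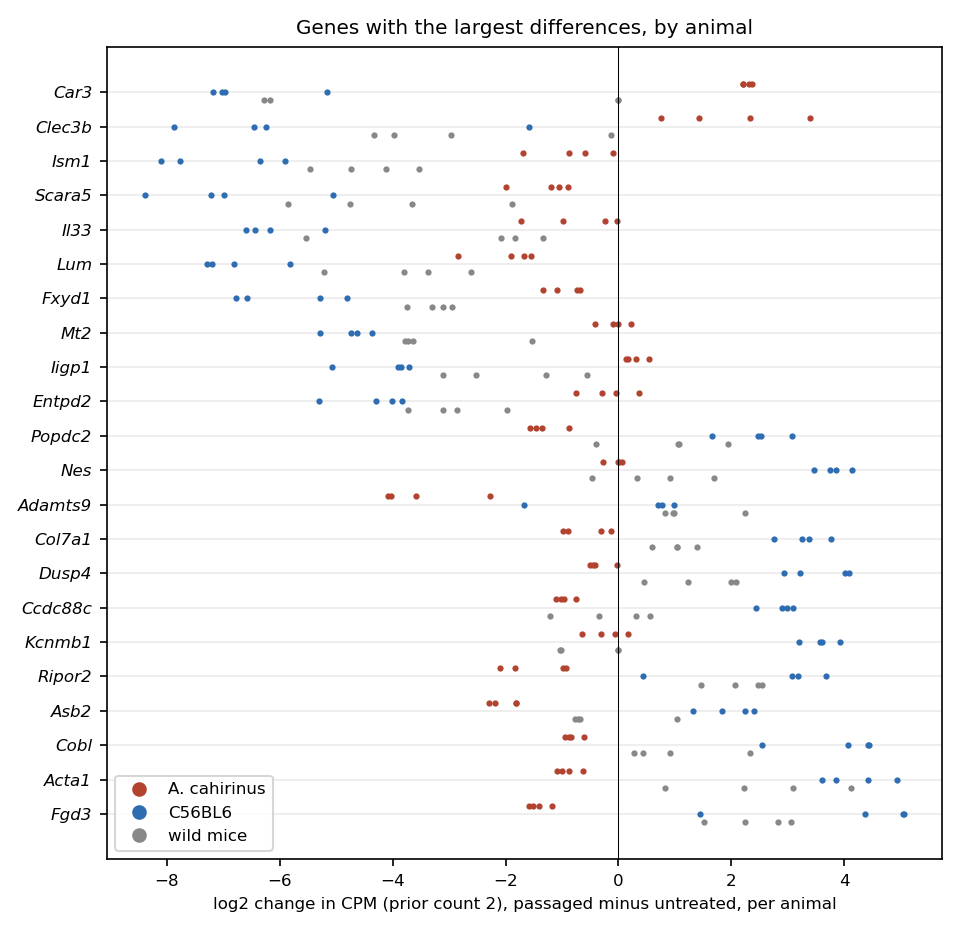
Log2 change in CPM with passage, 1 point per animal, for genes among the 12 largest differences in each direction (10 of them with a higher change) in A. cahirinus (red), C56BL6 mice (blue) and wild mice (grey), which were not used to choose them. The red and blue points of a gene do not overlap, which the choice of genes required, and the largest separation is that of Car3.

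Genes that changed in opposite directions in the 2 species included 277 that rose in A. cahirinus and fell in C56BL6 mice, and 362 of the reverse kind, among genes with a mean of at least 5 CPM in each. Of the first kind, after Car3 and Clec3b, the genes whose smaller change was largest were Alpl, Prg4 and Slc1a3. Prg4, the joint lubricant lubricin, went from 21.7, 42.5, 9.79 and 8.59 to 55.3, 207, 41.2 and 12.9 CPM in A. cahirinus and from 13.6, 7.07, 34.9 and 36.5 to 2.14, 1.72, 6.93 and 4.85 CPM in C56BL6 mice, a difference of 4.12 ± 0.37 (SE, adjusted p = 2.76e-05). The alkaline phosphatase Alpl and the glutamate transporter Slc1a3 differed by 3.57 and 4.37. Of the second kind were Asb2, Myh11, Ripor2, Fgd3 and Bach2. Bach2, a repressor known from lymphocytes, had nearly equal passaged levels within a species: it went from 6.93, 7.64, 7.92 and 7.92 to 2.23, 2.84, 3.01 and 2.92 CPM in A. cahirinus and from 7.72, 3.95, 5.4 and 6.66 to 19.8, 21.9, 20.8 and 20.4 CPM in C56BL6 mice.

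Wild mice were compared in the same way. Their comparison with A. cahirinus uses the same A. cahirinus libraries as the comparison above, so the values are set side by side and no agreement is counted. In wild mice Mki67 changed by 3.13, Mcm5 by 3.02, Lmnb1 by 2.28 and Rad54l by 1.84, each higher in passaged cells, and A. cahirinus differed from wild mice by -2.20 for Mki67, -2.22 for Mcm5, -1.82 for Lmnb1 and -1.54 for Rad54l, all called. Of the mitosis list 40 of 40 rose in wild mice, and 27 had a lower change in A. cahirinus than in wild mice, where 15.1% of 11151 genes did. Dcn, C1s1 and Serping1 fell in wild mice by 4.63, 2.63 and 3.48 on the log2 scale. Of the cholesterol list 16 of 24 rose and 1 fell in wild mice, where 4 rose and 16 fell in C56BL6 mice, and 0 had a higher and 14 a lower change in A. cahirinus than in wild mice. The median change of contractile genes in wild mice was -0.02, and Acta2 and Ccn2 changed by -0.02 and 0.01, with A. cahirinus minus wild differences of 0.21 and 0.60 that were not called (adjusted p = 0.661 and 0.488). Psmb8 changed by 0.13 in wild mice, and its A. cahirinus minus wild difference of 0.67 was not called (adjusted p = 0.232). Tested directly, the change in wild mice differed from that in C56BL6 mice for 554 of 11712 genes (4.73%; 333 higher, 2.84%, and 221 lower, 1.89%), among them Psmb8, at 1.99 (adjusted p = 0.0283), and Loxl3, at -1.48 (adjusted p = 0.0283). The wild mouse change of Acta2 was not called different from that of C56BL6 mice (adjusted p = 0.144). That count was 165 to 207 when wild replicate 1 or 4 or C56BL6 replicate 2, 3 or 4 was left out, and 2 without the animal term, where 1035 genes had an unadjusted p under 0.05. A. cahirinus differed from wild mice for 3247 of 11151 genes (29.1%), for 2158 without A. cahirinus replicate 1 and for 2034 without replicate 3. Wild replicate 3 stood apart from the others in matrix genes, with untreated Col1a1 at 1248 CPM against 13554 to 28489.7 CPM.

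Leaving out C56BL6 replicate 1, whose libraries held the keratins, raised the count of differences from 5897 to 6401, with 2978 higher and 3423 lower. The mitosis list then had 38 lower and 1 higher difference and a median difference of -2.12 against -1.71, homologous recombination had 20 lower, the interferon list had 14 higher and 0 lower of 21, and complement had 7 higher and 1 lower. Contractile genes went from 10 to 18 lower, immediate early genes from 8 to 13, proteases from 5 to 10, collagens from 7 to 11, the WNT list from 2 to 5 and the cytokine list from 3 to 5, each a move of over 1.5 times. Without the animal term 3710 differences were called, 1839 higher and 1871 lower. The mitosis list then had 19 lower, ribosome biogenesis 13, contractile genes 3 and the YAP list 2, and antigen presentation had 9 and the interferon list 10 higher. Other counts that this fit moved by over 1.5 times included cell cycle regulators, from 21 to 12 lower, p53 targets, from 9 to 5, growth factors, from 11 to 4, TGF-beta and BMP signalling, from 10 to 3, and immediate early genes, from 8 to 5. Lower differences also went from 5 to 3 for proteases, and from 3 to 1 for cytokines and for the cholesterol list. Among higher differences the WNT list went from 14 to 6, matrix glycoproteins from 17 to 11, cytokines from 8 to 5, collagens and proteases each from 7 to 2, and collagen processing from 6 to 3, with 9 to 5 lower. Higher differences of growth factors went from 5 to 2, those of cell cycle regulators and the YAP list each from 4 to 1, and those of contractile genes from 3 to 1. With wild mice in the fit, growth factors went from 11 to 6 lower, and contractile genes and TGF-beta and BMP signalling each from 10 to 6.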

How the data were processed

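RNA from cultured skin fibroblasts was sequenced as polyA libraries, and the values deposited by the authors are raw read counts per gene, not normalised. Reads were trimmed with Trim Galore and aligned with HISAT2, per the submitters' processing notes, and counted with featureCounts 2.0.3, per the file headers: by gene identifier on GRCm39 with Ensembl release 108 for mice, and by gene name on AcoCah2 for A. cahirinus. The recorded options set no strand and left out reads matching several places or overlapping genes, per the file headers.

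The 2 tables were joined on 18109 symbols found once in each, and 11314 genes passed filterByExpr in both. Library size was the table total, with TMM factors within each table. The counts were fitted with edgeR 4.0.16 (R 4.3.3) by the quasi-likelihood test, with 1 term per animal and a passage change per species, 6 residual degrees of freedom and Benjamini-Hochberg adjustment over the 11314 genes at 0.05. The common biological coefficient of variation was 0.119. SE is the absolute log2 fold change divided by the root of F. Single changes of an animal are log2 CPM with a prior count of 2, compared by an exact two-sided permutation test over 70 arrangements for panel genes. limma 3.58.1 and DESeq2 1.42.0 served as alternatives. Library names pair the samples: deviations of libraries with the same number correlated at 0.411 to 0.797 in A. cahirinus and 0.54 to 0.71 in C56BL6 mice. Libraries with different numbers reached 0.339 in A. cahirinus and 0.548 in C56BL6 mice, so the ranges touch in C56BL6 mice. In each species all 4 passaged libraries correlated best with the untreated library of their own number. P-values rest on the spread among these animals in their changes with passage, since the animal terms take out differences in level. Intervals cover counting error only.

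The comparison, the gene lists and the named genes were chosen with earlier results of these data known. Named were a panel of 20 genes, the 12 largest differences in each direction, 5 opposite changes of each kind, and up to 4 called members of each list. Brca1, B2m, Ccnd1, Tnc, Postn, Isg15, Gins4, Pttg1, Hmgb1, Masp1, Gusb, Polr1c, Junb and Tcf7 were chosen after their values were seen. Some of the genes these rules name are not reported here.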

Additional observations from a re-analysis of the deposited data

Results flagged for a closer look

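Among 44 groups of 4 animals examined, 2 held a value far from the others, where chance gives about 1 in 20. The Acta2 change of A. cahirinus replicate 4 was -0.15 in log2 CPM while the other 3 spiny mice were at 0.28 to 0.32, a gap of 0.918 of the range. The median absolute change of C56BL6 replicate 1, the animal with keratin reads, was 0.42 against 0.45 to 0.46 in the other C56BL6 mice, a gap of 0.831 of the range.

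The effect of passage differed between the species for 5897 of 11314 genes (52.1%) by the test of the difference itself. It differed for 17 of the 19 panel genes tested, which were chosen with earlier results of these data known. The panel differences reported here, A. cahirinus minus C56BL6 in log2, were negative for the dividing-cell genes Mki67 (-2.59), Mcm5 (-2.21), Top2a (-2.09), Lmnb1 (-1.94), Cdk1 (-1.48), Ccnb1 (-1.29) and Pcna (-0.58). They were also negative for Ccn2 (-1.23), Acta2 (-1.03), Cdkn1a (-0.80) and Col1a1 (-0.74). They were positive for Dcn (4.13), Mmp3 (3.25), Cdkn1c (1.94), Col3a1 (1.44) and Cdkn2a (0.46).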

How the results depend on the processing

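Under the 18 alternatives for the difference between A. cahirinus and C56BL6 mice, 124 of the 158 named genes with a called difference were called in the same direction every time and 34 were not. RLE, upper quartile and shared-symbol size factors, DESeq2 and the looser expression filter, chosen after seeing the data, changed the direction or call of none of the 160 named genes tested. Without the replicate block, the count of differences was 3710 against 5897, changes within A. cahirinus numbered 2439 against 4838, A. cahirinus minus wild 545 against 3247 and wild minus C56BL6 2 against 554, and 29 named genes lost their call. Leaving out 1 animal gave 5093 to 6401 differences, 3121 to 5644 changes within A. cahirinus, 7135 to 7932 within C56BL6 mice, 2034 to 3807 for A. cahirinus minus wild and 165 to 733 for wild minus C56BL6. The cause was not tested. Besides those named with their values, E2f8 (adjusted p = 0.0677), Mybl2 (0.0722), Cdk1 (0.127) and Eda2r (0.0531) lost their call without the block, and Pttg1 (0.0547) and Gusb (0.088) with wild mice in the fit.

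Neither Igf1 nor Il6 was called, and their sign turned. Without 1 animal Igf1 ranged from -0.51 to 0.12 and Il6 from -0.14 to 0.18. Igf1, at -0.12, was 0.05 with limma-voom, 0.12 without A. cahirinus replicate 1, 0.04 without A. cahirinus replicate 4, 0.05 without C56BL6 replicate 2 and 0.07 without C56BL6 replicate 3. Il6, at 0.01, was -0.16 without the replicate block, -0.13 with limma-voom, -0.08 without A. cahirinus replicate 4, -0.14 without C56BL6 replicate 1 and -0.03 without C56BL6 replicate 4. At these depths 3 counts are 0.086 to 0.117 CPM before TMM scaling. Folds of genes near 0 in passaged C56BL6 cells, such as Car3, Vtn and Cfb, are therefore limited by counting.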
